A study of Mus musculus with 9 samples.

Results

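E2A and HEB are E proteins, encoded by Tcf3 and Tcf12, whose dimers bind E-boxes, the sequence CANNTG. In thymocyte precursors they sit at genes of T cell receptor assembly and T lineage identity, and Id proteins, which rise with receptor signals, hold them off DNA. The regions described here were chosen by called peaks: they carried peaks of both proteins in DN3 cells, had a HEB peak in CD73+ cells, and had no peak of either protein in CD73- cells. Peaks of the 6 deposited lists on chromosomes 1 to 19, X and Y were merged where they overlapped by 1 bp or more. A peak is a stretch where precipitated reads exceeded the input. Of 58451 merged regions, 5292 held a peak in both DN3 lists, called joint DN3 regions below, and 1066 of these met the rule. A CD73+ E2A peak was allowed and not required. With the E2A and HEB lists of the CD73+ cells exchanged, the rule returned 102 regions, of which 59 were among the 1066, and with scores of at least 100 asked of the 3 required lists it returned 273.

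All cells were Rag2-deficient BALB/c fetal liver progenitors cultured on OP9-DL1, a stromal line that displays a Notch ligand, and being Rag2-deficient they could not assemble a receptor of their own. DN3 cells, CD4- CD8- CD25+ CD44-, came from such cultures at day 7, and their labels name no receptor. For the CD73- and CD73+ cells, DN3 cells received KN6, a gamma-delta receptor, from a retrovirus with a YFP marker, then grew for 3 days on OP9-DL1, were fixed, and were sorted as Thy1+ YFP+ CD24+ cells by CD73. The labels describe CD73- cells as keeping alpha-beta potential and CD73+ cells as having lost it. For every stage there was an input, an E2A precipitate and a HEB precipitate (9 libraries), with the authors' duplicates joined. Replicate error is therefore unknown and no difference between stages was tested. No cells cultured for the same time without the receptor are among the samples, and effects of receptor, added culture and sorting cannot be told apart. The score of a peak, deposited by the authors, grows with the evidence against input (minus 10 times the log10 of the MACS p-value), is at least 50, and ranks peaks within 1 list only. The lists held 9407 to 23205 peaks, their read depth is unknown here, and a missing peak means only that none was called.

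At 4 genes of the lists used below, among those whose start was given, the stretch just before the transcription start lay inside a region. These 4 are Dclre1c, which encodes the nuclease Artemis that opens hairpins during V(D)J recombination, Rag1, a recombinase gene, Klf2, a factor of quiescence and lymphocyte exit, and Gzma, the granzyme A protease gene of cytotoxic cells. Their 250 bases before the start are shown because the CD73+ HEB peak covered between 223 and 250 of them. Sequences are from RefSeq's GRCm38 table, the build of the peak lists (mm10), read 5′ to 3′ on the strand of the gene, with each CANNTG in capitals. The Dclre1c stretch is chr2:3423881-3424130 on the plus strand, the Rag1 stretch chr2:101649533-101649782 on the minus strand, the Klf2 stretch chr8:72318812-72319061 on the plus strand and the Gzma stretch chr13:113100982-113101231 on the minus strand.
Dclre1c: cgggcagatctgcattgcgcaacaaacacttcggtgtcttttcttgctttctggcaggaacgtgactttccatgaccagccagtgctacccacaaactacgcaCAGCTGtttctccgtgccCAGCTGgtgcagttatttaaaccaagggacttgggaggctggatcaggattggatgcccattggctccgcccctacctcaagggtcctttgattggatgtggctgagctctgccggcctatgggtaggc
Rag1: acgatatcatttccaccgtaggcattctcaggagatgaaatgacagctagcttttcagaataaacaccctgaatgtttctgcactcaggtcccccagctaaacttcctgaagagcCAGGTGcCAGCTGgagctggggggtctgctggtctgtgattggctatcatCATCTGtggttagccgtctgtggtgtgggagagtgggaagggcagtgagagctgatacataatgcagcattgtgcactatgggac
Klf2: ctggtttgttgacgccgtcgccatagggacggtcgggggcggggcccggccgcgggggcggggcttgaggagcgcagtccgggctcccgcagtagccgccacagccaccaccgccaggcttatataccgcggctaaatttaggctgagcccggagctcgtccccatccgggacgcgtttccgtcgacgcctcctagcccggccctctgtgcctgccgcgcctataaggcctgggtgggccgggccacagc
Gzma: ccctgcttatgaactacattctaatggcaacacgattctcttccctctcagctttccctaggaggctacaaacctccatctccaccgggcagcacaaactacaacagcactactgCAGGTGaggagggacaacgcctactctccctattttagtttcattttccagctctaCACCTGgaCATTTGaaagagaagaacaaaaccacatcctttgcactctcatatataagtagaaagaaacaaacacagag
The Dclre1c stretch held 2 E-boxes, both CAGCTG. The Rag1 stretch held 3, of which 1 was CAGCTG, and the Gzma stretch 3, none of them CAGCTG. The Klf2 stretch, with 71.2% G and C, held no CANNTG.

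The scores of these peaks chose the regions and are given as a description. In the CD73+ HEB list the 1066 regions had a lowest score of 50.01, a median of 93.2 and a highest of 604. Their DN3 E2A scores had a median of 172, between 50.02 and 1329, and their DN3 HEB scores a median of 107, between 50.02 and 516. The median region stood above 73.5% of the CD73+ HEB list, 77.3% of the DN3 E2A list and 72.0% of the DN3 HEB list. Joint DN3 regions with a CD73+ HEB peak and also a CD73- peak, 1573 in number, had median ranks of 90.0%, 90.6% and 90.6%. The 2257 joint DN3 regions with no peak in any of the 4 later lists had median ranks of 64.7% for DN3 E2A and 61.0% for DN3 HEB.

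Over all joint DN3 regions, 49.9% had a CD73+ HEB peak and 36.4% a peak in either CD73- list. The regions made up 20.1% of joint DN3 regions (95% Wilson interval 19.1% to 21.2%, which covers counting error only) and 31.7% of the 3366 with no CD73- peak. Their share was not even across scores. It was 14.9% of joint DN3 regions with a DN3 E2A score under 75, 27.5% of those between 200 and 300, 12.5% between 500 and 1000, and 2.80% (8 of 286) at 1000 and over. At that top level 90.9% had both a CD73+ HEB and a CD73- peak. Read from the CD73+ HEB score, 69.1% of joint DN3 regions with that peak under 75 had no CD73- peak, against 1.39% (4 of 287) at 500 and over. In each higher range of the CD73+ HEB score a smaller share of joint sites lacked a CD73- peak. Whether a deeper CD73- library would have called peaks at more of them was not tested.

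**Figure D1:**
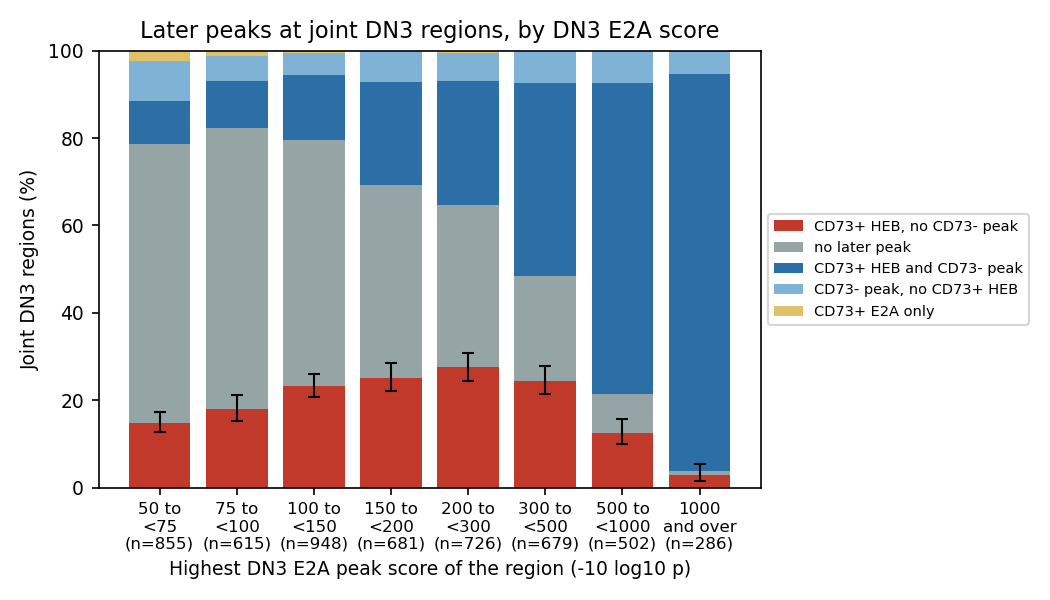
Share of joint DN3 regions (y axis, percent) with each pattern of later peaks, by the highest DN3 E2A peak score of the region (x axis). Red is CD73+ HEB with no CD73- peak, with its 95% Wilson interval; it stands at 27.5% between 200 and 300 and at 2.80% at 1000 and over.

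Just inside the rule stood a region in Zap70, the kinase recruited to the activated receptor, with a CD73+ HEB score of 50.01 beside DN3 scores of 99.9 for E2A and 149 for HEB. In all, 228 of the 1066 regions had a CD73+ HEB score under 60. Just outside stood a region 5162 bp from Gcnt4, with a CD73+ HEB score of 218, a CD73- HEB score of 50 and DN3 scores of 169 and 102. Of the 1573 regions kept out by a CD73- peak, 200 had no CD73- score of 60 or more. In 616 of the 1573 only 1 CD73- list held a peak, HEB in 465 and E2A in 151. Few regions were kept in by a narrow miss in position: the nearest CD73- peak lay within 500 bp of 3 regions and within 1 kb of 19, and its median distance was 39674 bp.

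Within a region, the CD73+ HEB peak was narrower than the DN3 peaks and sat near their middle. The difference in width held for the whole lists, with medians of 181 bp for CD73+ HEB, 617 bp for DN3 E2A and 721 bp for DN3 HEB. In the 1066 regions the median width of the CD73+ HEB peak was 267 bp (quartiles 186 and 388 bp). It was 769 bp for the DN3 E2A peak and 917 bp for the DN3 HEB peak of the same regions. At joint regions with both CD73+ HEB and CD73- peaks the CD73+ HEB peak had a median of 406 bp. Midpoints of the CD73+ HEB and DN3 E2A peaks were a median of 76.8 bp apart, and 653 of 1066 lay within 100 bp. The whole CD73+ HEB peak lay inside the DN3 E2A peak in 90.2% of regions and inside both DN3 peaks in 85.4%. In 104 regions the CD73+ HEB list held more than 1 peak, at most 3. At joint regions with a CD73- peak the midpoints were a median of 75.5 bp apart, with 61.0% within 100 bp.

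**Figure D2:**
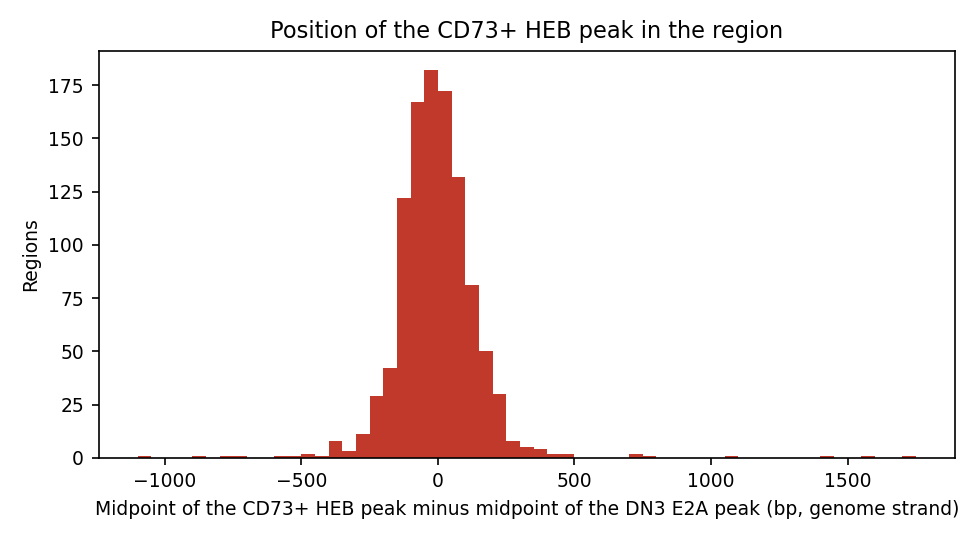
Distance in bp from the midpoint of the DN3 E2A peak to that of the CD73+ HEB peak (x axis, genome strand) against the number of regions (y axis), for the 1066 regions. The bars gather around 0, with 653 regions within 100 bp.

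Across the 1066 regions the CD73+ HEB score went only weakly with the DN3 scores. Spearman's rank correlation was 0.22 with DN3 E2A and 0.17 with DN3 HEB, whereas the DN3 E2A and DN3 HEB scores, which share an input library, had one of 0.55. At the 1573 joint regions that also had a CD73- peak the same 3 values were 0.56, 0.55 and 0.76. These describe sites within libraries whose score range the rule cut, and sites are not replicates.

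**Figure D3:**
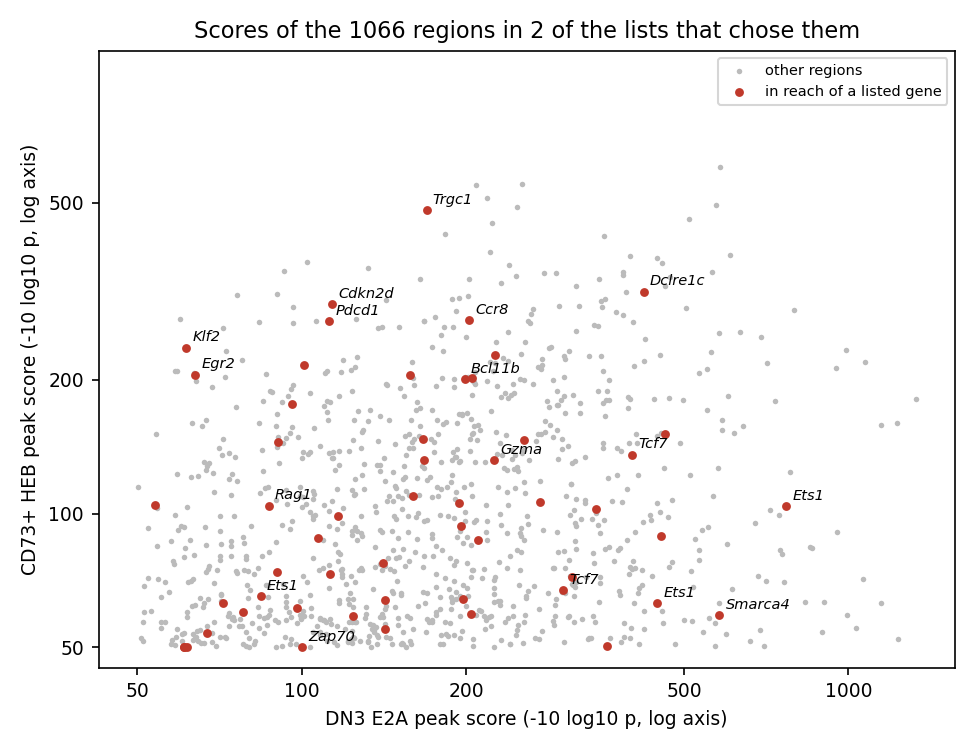
Each point is 1 of the 1066 regions, placed by its DN3 E2A score (x axis) and CD73+ HEB score (y axis), both on log axes. Red points lie in the span of a listed gene or within 10 kb, and gene names mark some of them: Trgc1 stands at 483 for CD73+ HEB and 169 for DN3 E2A, and Ets1 at 104 and 770.

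The list that the rule left free was CD73+ E2A. It was the longest, with 23205 peaks, of which 7.02% scored 100 or more, against 24.1% of the CD73+ HEB list. How far this bears on the shares below was not tested. Of the 1066 regions, 59 held a CD73+ E2A peak, 5.53% (4.31% to 7.07%), against 16% of all joint DN3 regions. The share was 1.87% (1.39% to 2.51%) at the 2300 joint DN3 regions with neither a CD73+ HEB nor a CD73- peak, and 44.5% (42.1% to 47.0%) at those with both. At DN3 E2A scores from 200 to 300 the regions had 11 of 200 (5.50%), regions with a CD73- peak as well 70 of 207 (33.8%), and regions with neither 4 of 273 (1.47%). From 500 to 1000 these counts were 6 of 63 (9.52%), 146 of 357 (40.9%) and 2 of 47 (4.26%). At DN3 E2A scores of 1000 and over they were 2 of 8, 174 of 260 and 0 of 3. At CD73+ HEB scores from 100 to 150 they were 10 of 212 (4.72%) and, with a CD73- peak, 73 of 225 (32.4%). In all 6 ranges of the DN3 E2A score the share was lower here than at regions that also had a CD73- peak. Regions are not replicates and share their libraries, so no test was made. In 53 of the 59 the CD73+ E2A peak overlapped the highest CD73+ HEB peak. Several of the 59 lay in 1 stretch of chromosome 5, near Gm5861, Speer1, Gm6460 and 4933402N22Rik. There the CD73+ E2A scores 66.74 and 84.05 each recurred. Whether these are copies of 1 sequence was not tested, and the intervals count each as a separate site.

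**Figure D4:**
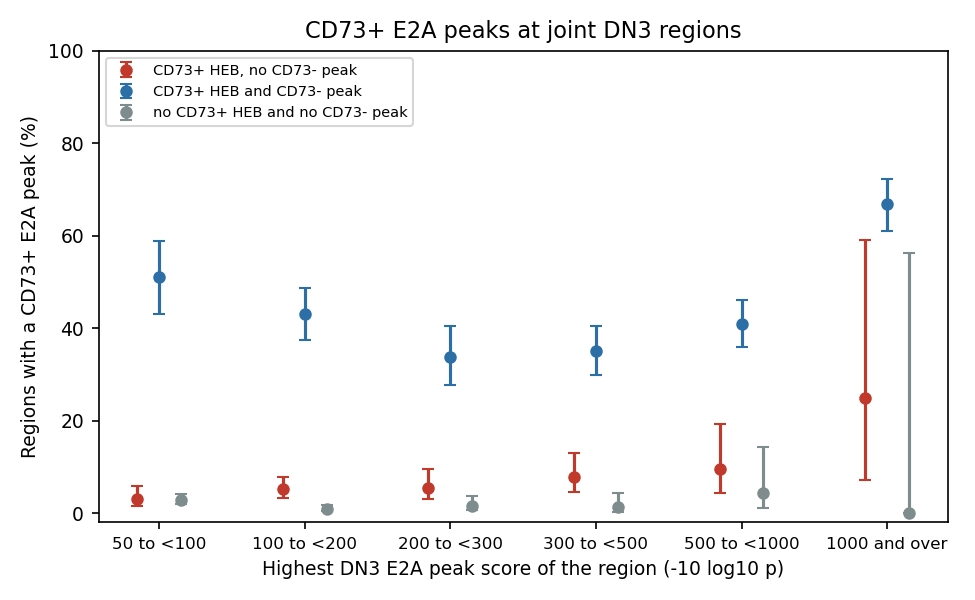
Share of joint DN3 regions with a CD73+ E2A peak (y axis, percent, with 95% Wilson intervals), by DN3 E2A score (x axis). Red points, regions with CD73+ HEB and no CD73- peak, stay between 2.94% and 9.52% below a score of 1000, under the blue points of regions that also have a CD73- peak.

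The CD73+ E2A scores of the 59 had a median of 66.7, with 7 at 100 or more. Their median rank stood above 65.3% of the CD73+ E2A list. All 845 joint DN3 regions with a CD73+ E2A peak had a median score of 106 and a median rank of 93.8%. The highest, 171, lay in Lepr, the leptin receptor gene, where the region had 74.3 for CD73+ HEB and 148 and 271 for DN3 E2A and HEB. A region 1052 bp past the end of Arhgef3, a guanine nucleotide exchange factor gene, had 137 for CD73+ E2A and 388 for CD73+ HEB. In Tradd, the adaptor of TNF receptors, the scores were 115 for CD73+ E2A and 87.1 for CD73+ HEB. In Wdr12, a ribosome assembly gene, they were 112 and 366. The highest of the 59 for CD73+ E2A was thus not the highest for CD73+ HEB.

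The highest CD73+ HEB score, 604, belonged to a region in Tle5, a gene of the Groucho family of corepressors, on chromosome 10 at 81560087 to 81561901. That region scored 583 for DN3 E2A and 313 for DN3 HEB and had a CD73+ E2A peak of 81.6. Next came Rap1gap2, a Rap GTPase regulator, at 550.4, and Klf13, a Krüppel-like factor gene, at 549. The Klf13 region lay 391 bp upstream of the start, on chromosome 7 at 63939306 to 63940370, and had DN3 scores of 208 and 265. Others among the highest 12 lay in Ctse (cathepsin E, 512), Aff1, a part of the elongation machinery of RNA polymerase II (490.3), Qtrt1, a tRNA modifying enzyme (460.4), and Gabpb2, a subunit of the Ets factor GABP (426). Of the 12, Tle5 and the Arhgef3 region described above had a CD73+ E2A peak.

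The 12 regions highest by the lower of their DN3 scores ranged from 52.2 to 234 for CD73+ HEB, and 5 of them scored under 75 there. The region 2836 bp past Rin1, a Ras effector gene, scored 55.3 for CD73+ HEB and 1031 and 516 for DN3 E2A and HEB. That in Rheb, the GTPase that activates mTORC1, scored 54.8 for CD73+ HEB, with 690.0 and 464 in DN3 cells. A region 2358 bp from Zfp36l2, an mRNA decay factor, had 207 for CD73+ HEB and 533 for DN3 E2A. In Plxdc1 the CD73+ HEB score was 181, and the DN3 E2A score, 1329, was the highest of the 1066 regions.

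The regions lay both in and between genes. A protein-coding gene span held 53.8% of them (50.8% to 56.8%), 56.6% of joint regions with no later peak and 50.7% of those with both CD73+ HEB and CD73- peaks. Start sites, from RefSeq's promoter table, were used for all chromosomes but 18, which leaves 1026 regions. That source gave starts for 17491 of 21883 protein-coding genes, and long stretches of other chromosomes lacked them too. It gave none for Ets1, Tox or Sla, for example. The distances and shares that follow hold only for the starts given. The nearest start lay a median of 34413 bp away, against 34440 bp and 32826 bp in the other 2 classes. A start lay within 1 kb of 8.28% (6.75% to 10.1%), against 5.52% (4.64% to 6.55%) with no later peak and 9.17% (7.83% to 10.7%) with both kinds of peak.

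Among genes with a start given, the stretch from 250 bp before it to 50 bp after it lay wholly inside a region for 42. In these 42 windows CAGCTG stood in 17, 40.5% (27.0% to 55.5%), against 15.3% of the windows of 17491 genes. CACCTG, on either strand and so also as CAGGTG, stood in 45.2% (31.2% to 60.1%), against 19.4%, and any CANNTG, which includes both, in 85.7%, against 69%. Windows inside joint regions with no later peak had like shares, 36.4% for CAGCTG, 52.3% for CACCTG and 88.6% for CANNTG, over 44 genes. TGTGGT, a core of Runx sites, stood in 23.8% (13.5% to 38.5%), against 15.3% of all windows. It stood in 13.6% (6.40% to 26.7%) with no later peak and 16.7% (10.2% to 26.1%) with both CD73+ HEB and CD73- peaks. These intervals overlap. The G and C content had a median of 62.0% in the 42 windows and 56.3% over all. GCGTGGGCG, the Egr site, stood in 0 of 42, which allows up to 8.38%, and in 0.755% of all windows. A match is a run of letters and does not show binding. The highest CD73+ HEB score at the 42 promoters was 379.8 at Msh6, a mismatch repair gene, named after its value was seen.

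A gene was counted with a region in its span or within 10 kb. This held for 797 of 21903 protein-coding and T cell receptor constant genes, 3.64%, while 14.1% had any joint DN3 region. Of the 323 genes of 20 lists, 48 had such a region and 138 any joint DN3 region. Larger genes are reached more easily, and the 797 genes had a median span of 45478 bp, against 17141 bp over all genes. Since the regions were chosen among joint DN3 sites, the counts below are descriptions and no list was tested. A joint DN3 site stood at 12 of 19 proximal signalling genes, 11 of 18 T lineage factors and 14 of 23 gamma-delta genes. It stood at 10 of 21 genes induced by receptor signals, 8 of 14 of recombination and repair and 7 of 20 chromatin regulators. Cytokine receptor genes had 11 of 20 and costimulatory genes 13 of 20.

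**Figure D5:**
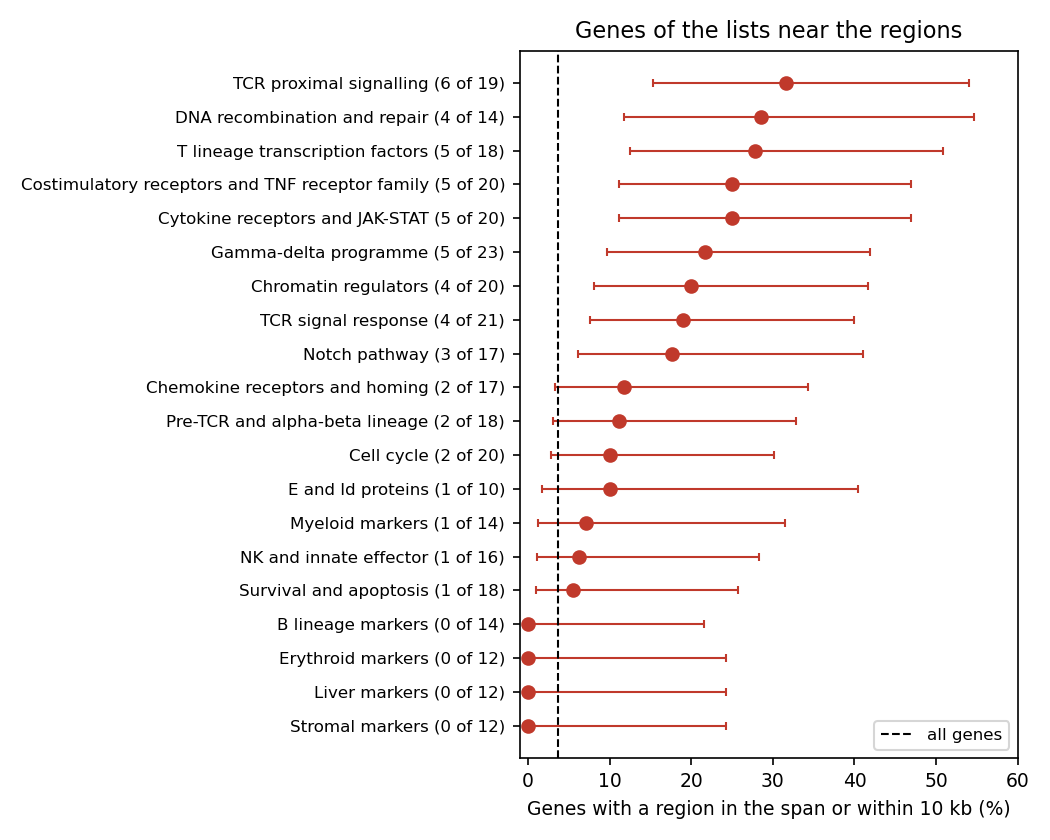
Percent of the genes of each list (x axis, with 95% Wilson intervals) that had 1 of the 1066 regions in the span or within 10 kb. The dashed line is the 3.64% of all genes; TCR proximal signalling stands highest, at 6 of 19, and 4 marker lists stand at 0.

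Genes of proximal receptor signalling had the largest share, 6 of 19 (31.6%, 15.4% to 54.0%), with a median span of 50137 bp. Of the same 19, 8 had a joint DN3 site with no later peak. Over all genes 1564 had such a site and 797 a region. Grap2, the adaptor GADS that joins SLP-76 to LAT, held a region of 205 for CD73+ HEB, with 158 and 133 in DN3 cells. Sla2, an adaptor that dampens receptor signals, had 93.7, the region at Fyn had 74.0, and the Zap70 region stood just inside the rule. Fyn and Zap70 had no CD73- peak anywhere in their reach, whereas Grap2 and Sla2 had one at another region, scoring 64.2 and 386 for CD73- HEB. Lck and Lat had no region of this kind.

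Of the T lineage transcription factor genes, 5 of 18 had a region (27.8%, 12.5% to 50.9%, median span 81598 bp). Tcf7, which encodes TCF-1, a factor needed for T lineage specification, had 2, and both its joint DN3 sites were of this kind. The one 9048 bp upstream, on chromosome 11 at 52292431 to 52293552, scored 136 for CD73+ HEB and 401 and 193 in DN3 cells. The one inside the gene, at 52275189 to 52276135, scored 67.3 and, in DN3 cells, 300.3 and 205. Ets1, an Ets factor of lymphocytes, held 3, with CD73+ HEB scores of 62.9, 65.3 and 104, the last with 770 for DN3 E2A. Bcl11b, the commitment factor, held 1 of 201, Tox, an HMG box factor, 1 of 146, and Klf2 1 of 236 whose DN3 scores were 61.5 for E2A and 155 for HEB. No CD73- peak stood in reach of Tcf7, Tox or Klf2, and at another region Bcl11b had 109 for CD73- HEB and Ets1 201.

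Genes of the gamma-delta programme had 5 of 23 (21.7%, 9.66% to 41.9%). The highest lay 2468 bp from Trgc1, a gamma chain constant gene, on chromosome 13 at 19219086 to 19220423, with 483 for CD73+ HEB and 169 and 111 for DN3 E2A and HEB. That score stood above 96.9% of the CD73+ HEB list. Cd163l1, the gene of the scavenger receptor SCART1, had 151 at 3518 bp upstream, with 462 and 390 in DN3 cells. Elsewhere in their reach Cd163l1 had CD73- scores of up to 196 for E2A and 333 for HEB, and Trgc1 62.05 for CD73- HEB. Zbtb16, which encodes PLZF, and Cd44 had regions of 63.9 and 60.2 for CD73+ HEB, and of these 2 genes Cd44 had CD73- peaks elsewhere in reach, up to 55.2 for E2A and 65.0 for HEB. Sox13, an HMG box factor of gamma-delta cells, had a joint DN3 site that was not of this kind, and the highest scores in its reach were 87.1 for CD73+ HEB and 96.5 for CD73- HEB. Nt5e, the gene of CD73 itself, had a CD73+ HEB peak of 89.6 in its reach and no joint DN3 region.

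Of genes induced by receptor signals, 4 of 21 had a region (19.05%, 7.67% to 40.0%, median span 5297 bp). Egr2, a zinc finger factor gene, had 1 at 6792 bp past its end, on chromosome 10 at 67548980 to 67550014, which also touched the promoter window of Ado. It scored 206 for CD73+ HEB and only 63.8 and 64.8 in DN3 cells, and no other region of any list stood in the reach of Egr2. Cd69, an early activation antigen, had 105 at 8828 bp, and Egr1 had 103 at 9224 bp, with 346 for DN3 E2A. Id2, an inhibitor of E proteins, had 77.4 at 152 bp past its end and a CD73+ E2A peak of 65.4. Id3 and Nr4a1 had none: the single joint site of each was not of this kind, and the highest CD73+ HEB scores in reach were 94.3 and 751. With a reach of 5 kb only 1 gene of this list had a region.

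Of V(D)J recombination and DNA repair genes, 4 of 14 had a region (28.6%, 11.7% to 54.6%, median span 51202 bp). Dclre1c had 316 for CD73+ HEB over the promoter shown above, with 422 and 121 in DN3 cells. The region over the Rag1 promoter, on chromosome 2 at 101649280 to 101650006, had 104 for CD73+ HEB and 86.9 and 51.9 in DN3 cells. The other joint site of Rag1 had a CD73- HEB peak of 70.6 and was the stronger in DN3 cells, at 552 for E2A. Xrcc4, of the end joining ligase complex, had 55.1 inside the gene. Trp53bp1, which protects broken ends, had 64.3 in a region across the edge of its span, with the CD73+ HEB peak itself outside. In the pre-TCR and alpha-beta list 2 of 18 genes, Rag1 among them, had such a region, and 14 of the 18 had a joint DN3 site.

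Cytokine receptor and JAK-STAT genes had 5 of 20. Il21r, the interleukin 21 receptor, had 3 regions, with CD73+ HEB scores of 72.0, 73.0 and 89.1, the last with 455 for DN3 E2A and a CD73+ E2A peak of 54.3. Il2ra, the CD25 chain that marks DN3 cells, had 145 at 6068 bp upstream, with 90.5 and 124 in DN3 cells. Il2rb, the beta chain shared by the receptors of interleukins 2 and 15, had 106 and 273 for DN3 E2A. Stat3 and Stat5a, genes of cytokine signal transducers, shared 1 region at 50.04, close to the lowest score, with a CD73+ E2A peak of 83.7.

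Costimulatory and TNF receptor family genes also had 5 of 20. Pdcd1, which encodes the inhibitory receptor PD-1, had 271 for CD73+ HEB at 2085 bp past its end, with 112 and 192 in DN3 cells. Cd2, an adhesion receptor, had 147 at 448 bp, Slamf6 132 inside the gene, and Traf1, an adaptor, 106 at 1301 bp upstream. Cd48 had 61.4. The reach of Pdcd1, Slamf6 and Cd48 held no CD73- peak, whereas that of Cd2 held one of 77.9 and that of Traf1 one of 91.6, both HEB. Cd27 had 4 joint DN3 sites and none of this kind, with CD73+ HEB scores up to 1128.

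Among homing genes 2 of 17 had a region, Ccr8, a chemokine receptor, with 272 at 7084 bp upstream, and Itgae, the CD103 integrin chain, with 176 inside the gene. Neither had a CD73- peak in reach. Ccr9 had 1 joint site, which was not of this kind, with 1079 for CD73+ HEB in its reach. Notch pathway genes had 3 of 17: Lfng, a fringe that modifies Notch, had 202 at 8681 bp upstream, Notch2 87.1 and Maml3 63.1. Cell cycle genes had 2 of 20. The region of Cdkn2d, which encodes the CDK inhibitor p19, scored 296 for CD73+ HEB and 114 and 101 in DN3 cells. It crossed the edge of the Cdkn2d span, with the CD73+ HEB peak itself outside, and it covered the promoter of the neighbouring gene Kri1. The other region, at Btg2, scored 50.2.

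Of chromatin regulators, 4 of 20 had a region, with CD73+ HEB scores of 88.2 in Dnmt3a, 59.1 in Smarca4, 58.9 in Kdm6b and 53.8 in Tet3, while Smarca4 had 580.4 for DN3 E2A. Survival genes had 1 of 18, in Bcl2l1 with 99.0. NK and innate genes had 1 of 16, over the Gzma promoter, with 132 for CD73+ HEB and 225 and 52.2 in DN3 cells. Of markers of other cells that such cultures could hold, 0 of 14 B lineage genes (up to 21.5%) had a region, and 0 of 12 each of erythroid, stromal and liver genes (up to 24.2%). Of 14 myeloid genes 1 did, Irf8 with 50.4 at 9597 bp upstream. The upper limits stand above the 3.64% of all genes, so counts of 0 do not set these short lists apart. A joint DN3 site stood at 3 of 14 B lineage genes, each with such a site without later peak, and at 3 of 12 stromal genes. It stood at 2 of 14 myeloid genes and at 0 of 12 each of erythroid and liver genes. Peaks near a gene do not measure its expression.

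A region of this kind did not mean that its gene was without CD73- peaks. Of the 797 genes, 366 (45.9%, 42.5% to 49.4%) had a CD73- peak at another region in reach. The share was 42.6% (40.0% to 45.2%) for the 1334 genes that had a joint site with no later peak and no region of this kind, and 26.5% for all genes. Of the 48 listed genes, 26 had a CD73- peak in reach and 22 did not. The listed genes without one included Tcf7, Klf2, Egr2, Ccr8, Pdcd1, Cdkn2d, Itgae, Tox, Gzma and Id2.

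Some genes held several regions. Of the 797, 78 had 2 or more and 10 had 3 or more, the most in Septin9, a cytoskeletal gene, with 4 regions of 65.05 to 189 for CD73+ HEB. Its reach also held 4 regions with a CD73- peak, at up to 345 for E2A and 417 for HEB. Sema4d, a semaphorin of lymphocytes, held 3 with 121, 169 and 247, and its only CD73- peak in reach scored 52.0. Ksr1, a scaffold of the ERK cascade, had 3 with 66.2, 114 and 136, and elsewhere in its reach CD73- scores of 113 for E2A and 127 for HEB. Snap47 had 3 with 58.6, 110.1 and 130 and no CD73- peak in reach. Along the chromosomes 232 regions (21.8%) lay within 50 kb of another, in 107 groups of 2 or more. No such share is given here for other joint DN3 regions, so this grouping is a description and not a trait of these regions.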

How the data were processed

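Chromatin from DN3, CD73- and CD73+ cells was precipitated with sera to E2A or HEB after 10 min in 1% formaldehyde and sequenced, per the labels' protocols. The authors joined duplicates and, per the submitters' processing notes, used Bowtie, HOMER and MACS 1.4.2 with build mm10; parameters are not given in the sources used here. The 6 deposited peak lists give the authors' score per peak, and 0 lists were left unmatched to a group.

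The regions, the gene lists and the naming rule below were all chosen with earlier results of these data known. Peaks were merged at 1 bp of overlap and a region took the highest score of each list. Gene spans came from RefSeq for GRCm38 (49997 entries, 21903 used); 323 of 324 listed symbols matched. Start sites and 300 bp windows were given for 17491 protein-coding genes, 1 window a gene. Named are the 12 regions highest for CD73+ HEB, the 12 highest by the lower DN3 score, up to 6 highest for CD73+ E2A, up to 6 genes with most regions, listed genes with a region (up to 5 a list with values) and Id3, Tcf7, Rag1, Ccr9, Cd27, Sox13, Egr2, Nr4a1 and Nt5e. Not all of them are printed, and some genes are not reported here. Motifs were planned in windows on each peak and were read in promoter windows instead, since no genome was used. Intervals are 95% Wilson. No p-value was computed, and with 1 joined list a group precision is limited to counting error. Alternatives are a score of 100, equal list lengths, other overlap rules, exchanged CD73+ lists and other reaches. The merging was tested on simulated data. Software was matplotlib 3.10.9, scipy 1.17.1, pandas 2.3.3, numpy 2.4.6 and Python 3.11.15.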

Additional observations from a re-analysis of the deposited data

How the results depend on the processing

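Of 28 values under alternatives, 15 stayed within a factor of 1.5 of the main count or inside the 95% interval of the main share, and 13 did not. Merging across gaps of up to 500 bp, dropping peaks of over 3000 bp in width and asking for 50% of the narrower peak moved none of the count of regions (1059 to 1081), their share of joint DN3 sites and the share with a CD73+ E2A peak. With only peaks of at least 100 in all lists there were 558 regions, 3.05% of them with a CD73+ E2A peak. That setting also left out CD73- and CD73+ E2A peaks under 100. Sites with a weaker CD73- peak could therefore enter, and the 558 are not a part of the 1066, of which 273 scored 100 in the 3 required lists. With that score asked of the 3 required lists there were 273, 10.3% of joint DN3 sites of that score, and 10.3% of them had a CD73+ E2A peak. Lists cut to 9407 peaks gave 981 regions and 3.77% with CD73+ E2A. With the CD73+ lists exchanged there were 102 regions, 1.93% of joint sites, of which 57.8% held a peak of the other CD73+ list. The share inside a gene was 66.7% with all reference genes and 48.4% for the 273 stronger regions. Listed genes with a region numbered 11 for those 273, 37 with a reach of 5 kb and 66 by nearest gene at any distance. With a reach of 50 kb, 67.5% of genes with a region had a CD73- peak, against 56.8% of all genes. At that reach it was 61.2% of genes that had a joint site with no later peak and no region. For CAGCTG, promoter windows with any overlap, added after the data were seen, gave 35.0%. Motif windows of 200 and 400 bp on the peaks were not run. No paired analysis was possible because each group has 1 joined list, and for the same reason none could be left out.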

Other observations

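Some groups of neighbouring regions are named here after their values were seen. In and beside Ptprc, which encodes the phosphatase CD45, lay 3 regions between 138153980 and 138192340 on chromosome 1. The CD73+ HEB score was 67.8 for the region inside the gene. It was 53.3 for the region 1839 bp from Ptprc and 257 for the region 15313 bp from it. A group of 3 ran over 46345 bp from Ap1m1 to Klf2 on chromosome 8, at 58.7 to 236, and another of 3 over 73702 bp beside Thy1 and Usp2 on chromosome 9, at 63.15 to 109.6. The largest group, 5 regions over 115265 bp, lay by Stt3b and Gadl1 on chromosome 9, at 50.4 to 326. In all, 15 groups held 3 or more regions.

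Among microRNA genes, also looked at without a rule, Mir142, which is abundant in blood cells, had a region 1789 bp away with 140.2 for CD73+ HEB and 70.5 and 67.8 in DN3 cells. The cluster of Mir23a, Mir27a and Mir24-2 had 1 at 9511 to 9808 bp with 179 for CD73+ HEB, and 91.8 and 64.3 in DN3 cells. By chromosome, the regions made up 27.0% of the 148 joint DN3 regions on chromosome 18 (20.5% to 34.7%), the highest share. They made up 12.9% of 62 on X (6.69% to 23.4%) and, the lowest share, 1 of 16 on Y (6.25%, 1.11% to 28.3%). The 20.1% over all joint DN3 regions lay inside the intervals of X and Y and just under that of chromosome 18.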
